A study of Arabidopsis thaliana with 20 samples.

Results

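The genes described here are 53 nuclear genes of Arabidopsis thaliana whose proteins carry out the light reactions of photosynthesis. They were chosen by locus and function, with earlier results of these data known. The 15 LHCB genes encode the chlorophyll-binding antenna of photosystem II (LHCII antenna), and the 6 LHCA genes encode the antenna of photosystem I (LHCI antenna). A further 13 genes encode subunits or close partners of photosystem I and 11 encode subunits of photosystem II. The 6 electron carrier genes are PETC, PETE1, PETE2, FD2, FNR1 and FNR2, and the 2 remaining genes, ATPC1 and ATPD, encode subunits of the chloroplast ATP synthase. All 53 genes had counts and passed the filter on low counts, which kept 14503 of the 37336 loci in the files. Transcript 3' ends had been counted in rosette leaves of wild-type Col-0 plants and of a snrk2.4/snrk2.10 double mutant in the same ecotype, harvested 25 or 45 days from sowing (DAS). Below, "Col-0" stands for the wild type alone. The mutated genes encode protein kinases of the SnRK2 family, known from responses to osmotic stress; the mutant alleles are not given in the sources used here. All plants had grown in days of 16 h of light and 8 h of darkness, and each of the 4 groups held 5 libraries. The labels do not say that the libraries came from separate plants, so the p-values below measure only the spread between these samples, which may be in part technical.

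In the thylakoid membrane, LHCII and LHCI proteins absorb light and pass the excitation to the reaction centres of photosystems II and I. Photosystem II draws electrons from water, the cytochrome b6f complex and plastocyanin carry them to photosystem I, and ferredoxin with its NADP reductase delivers them to NADP, while the proton gradient drives ATP synthase. The reaction centre proteins are encoded in the plastid, whereas the antenna and many outer subunits are encoded in the nucleus, and the nuclear genes are known to be repressed as leaves senesce and the chloroplasts are dismantled.

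At 25 DAS the library totals lay between 985639 and 2343212 counts for Col-0 and between 1414164 and 1991026 for the double mutant. At 45 DAS they lay between 637536 and 1223813 counts for Col-0 and between 615317 and 1827404 for the double mutant. SNRK2.4 was lower in the mutant at both ages, with log2 fold changes of -2.94 and -5.12 (edgeR quasi-likelihood test, adjusted p = 2.96e-07 and 3.1e-12). SNRK2.10 was lower by a log2 fold change of -1.26 at 45 DAS (adjusted p = 5.54e-06), but its log2 fold change of -0.40 at 25 DAS did not pass the threshold (adjusted p = 0.106). The levels of 3 leaf mesophyll genes (RBCS1A, RCA and CA1) were summed in CPM (counts scaled to a common library size). The median sum was 54830 and 54490 CPM in Col-0 and mutant at 25 DAS, and 2013 and 4412 CPM at 45 DAS. Between genotypes at 45 DAS 1 of the 3 genes passed the threshold, and log2 fold changes ran from -0.14 for CA1 to 0.91 for RCA. The summed level of 4 epidermis genes went from a median of 498.6 to 116.5 CPM in Col-0 and from 530.1 to 257.7 CPM in the mutant, and that of 3 xylem genes had a median of 0 CPM in Col-0 and 0.594 CPM in the mutant at 45 DAS, with IRX3 at 0 in all Col-0 libraries of that age. The sum of 3 phloem genes had medians of 190.0, 186.4, 197.2 and 181.9 CPM in Col-0 and mutant at 25 DAS and then at 45 DAS. Its genes moved in different directions with age. SEOR1 had log2 fold changes of -4.73 in Col-0 and -4.18 in the mutant, and APL had 0.64 and 0.44. The sums of 4 guard cell genes had medians between 43.9 and 84.0 CPM, and 4 flower and 3 root genes stayed at medians of 2.19 to 10.8 CPM. The part of these marker shifts in the results below was not tested, and in bulk leaves fewer cells of a type and less RNA per cell cannot be told apart.

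Several members are close copies that lie beside each other in the genome. LHCB1.5 (AT2G34420, chr2:14522524-14523568, minus strand) and LHCB1.4 (AT2G34430, chr2:14524607-14525918, plus strand) are neighbours on chromosome 2 with 1038 bases between their start sites (TAIR10.1), and both encode the main trimeric LHCII protein. They stood at opposite ends of the LHCB1 family with age, and so did LHCB2.1 and LHCB2.3 within the LHCB2 family. The LHCB2 protein is among those phosphorylated when antenna moves between the photosystems. The 250 bases upstream of the annotated start of these 4 genes, taken from RefSeq TAIR10.1, are shown 5' to 3' on the strand of each gene because each pair joins a gene that kept more of its transcript to one that kept little. The windows are chr2:14523569-14523818 for LHCB1.5, chr2:14524357-14524606 for LHCB1.4, chr2:1824481-1824730 for LHCB2.1 and chr3:10255656-10255905 for LHCB2.3. Capitals mark matches on either strand to any of 5 short motifs known from light-regulated or senescence-related promoters: CACGTG (G-box), GATAAG (I-box), CCAATC (the element bound by GOLDEN2-LIKE factors), AATATCT (core of the evening element) and TTGACC (W-box).
LHCB1.5: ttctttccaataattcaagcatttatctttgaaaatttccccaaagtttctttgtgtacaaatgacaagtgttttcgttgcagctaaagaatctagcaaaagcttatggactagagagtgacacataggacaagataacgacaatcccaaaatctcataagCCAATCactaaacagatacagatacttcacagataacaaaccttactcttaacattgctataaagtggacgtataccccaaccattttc
LHCB1.4: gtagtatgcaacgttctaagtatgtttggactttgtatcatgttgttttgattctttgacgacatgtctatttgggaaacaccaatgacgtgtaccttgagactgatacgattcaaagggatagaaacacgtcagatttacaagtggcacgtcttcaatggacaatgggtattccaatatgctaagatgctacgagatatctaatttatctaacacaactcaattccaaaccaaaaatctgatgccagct
LHCB2.1: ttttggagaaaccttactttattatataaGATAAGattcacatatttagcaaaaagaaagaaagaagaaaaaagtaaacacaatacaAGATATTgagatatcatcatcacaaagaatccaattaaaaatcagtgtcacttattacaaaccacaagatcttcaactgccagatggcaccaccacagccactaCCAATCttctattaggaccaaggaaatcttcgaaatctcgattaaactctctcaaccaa
LHCB2.3: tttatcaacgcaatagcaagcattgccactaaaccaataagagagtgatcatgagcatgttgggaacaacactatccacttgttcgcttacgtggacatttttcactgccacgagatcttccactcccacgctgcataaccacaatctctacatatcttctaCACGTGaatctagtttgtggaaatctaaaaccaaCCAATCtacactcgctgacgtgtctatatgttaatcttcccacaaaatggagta
No capitals overlap in these windows. The LHCB1.5 window held 1 CCAATC, and the LHCB1.4 window held none of the 5 motifs. The LHCB2.1 window held GATAAG, the reverse of AATATCT and CCAATC, and the LHCB2.3 window held CACGTG and CCAATC, so that CCAATC was present in the window of the gene that kept the least.

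Over all 53 genes, CCAATC lay in 14 windows (26.4%), against 10.2% of the same windows of 27443 nuclear protein-coding genes. It was found in 7 of 15 LHCII genes and 3 of 6 LHCI genes, but in 0 of 13 photosystem I genes. CACGTG lay in 11 windows (20.8%, against 6.49% of all genes) and GATAAG in 12 (22.6%, against 12.3%). AATATCT and TTGACC each lay in 7 windows (13.2%), against 2745 and 3342 of the 27443. These are matches of letters and not measured binding, and the absence of a match says only that the letters are not in that window.

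With age, nearly the whole set fell in both genotypes. Together the 53 genes held 21.26% ± 0.303 (SD, n = 5) of all counts in Col-0 at 25 DAS and 2.17% ± 1.21 at 45 DAS. In the mutant the share was 20.45% ± 0.263 at 25 DAS and 4.47% ± 0.456 at 45 DAS. In Col-0 52 of 53 genes were lower at 45 DAS by edgeR's quasi-likelihood test with Benjamini-Hochberg adjustment over all 14503 genes, where 34.5% of all genes tested were called lower. In the mutant the count was again 52 of 53, where 34.6% of all genes were called lower. In each genotype the 45 DAS libraries of those 52 genes all lay below the 25 DAS libraries, as they did for 28.6% of all genes tested in Col-0 and 29.5% in the mutant. The median log2 fold change over the 53 genes was -4.03 in Col-0 (16.4-fold lower) and -2.96 in the mutant (7.80-fold lower), beside medians of 0.07 and 0.06 over all genes tested. The scaling between libraries bears on these sizes, since scaling by library totals alone moved the median of all genes to 0.72 and 0.75 and the medians of the 53 genes to -3.35 and -2.27. In that scaling 52 members were again called lower in Col-0, and in the mutant 51 were called lower, PSBR lost its call and LHCB7 was called higher. Of all 14503 genes, 3288 in Col-0 and 3141 in the mutant were called lower there.

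**Figure D1:**
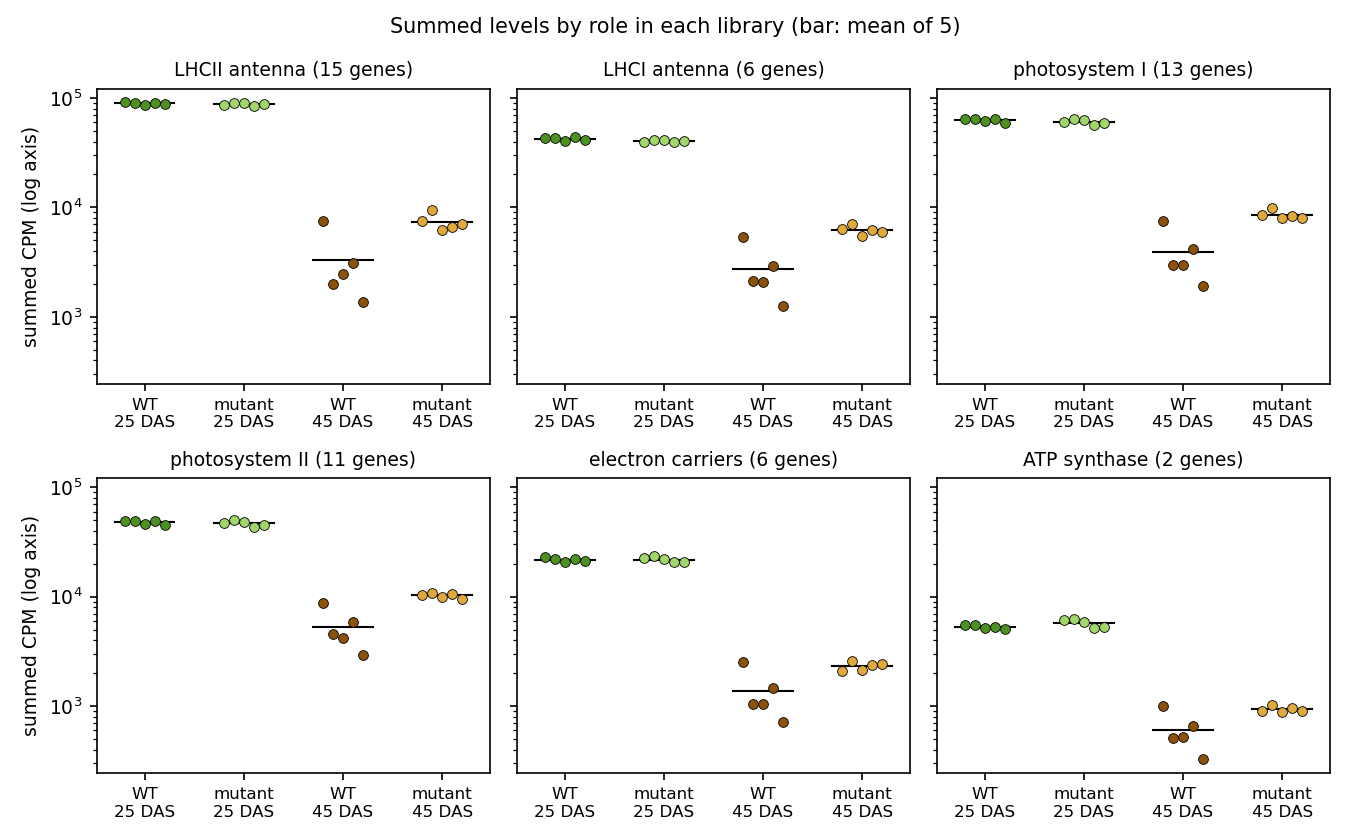
Summed CPM (log axis) of the genes of each role in every library, with a bar at the mean of 5. In all 6 panels the 25 DAS libraries lie close together and above every 45 DAS library, and at 45 DAS the Col-0 libraries spread more than the mutant ones.

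The LHCII antenna had the lowest medians. Its 15 genes had a median log2 fold change of -4.91 in Col-0 and -3.85 in the mutant, so that a median of 3.31% and 6.91% of the 25 DAS level was left. The medians for the LHCI antenna were -3.96 and -2.73, those for photosystem I -3.93 and -2.89, and those for photosystem II -3.62 and -2.77. The electron carriers had medians of -3.65 and -2.76 and the 2 ATP synthase genes -3.47 and -2.92. The roles overlapped widely, because each held genes that fell little and genes that fell a lot, and no test of the difference between roles was made.

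Across the 53 genes the log2 fold changes with age of Col-0 and mutant had a Pearson r of 0.953, beside 0.943 across all 14503 genes tested; both are descriptions, because genes share libraries and are not independent. In the mutant 51 genes had a smaller fall and 2, LHCB1.4 and LHCB2.3, a larger one. LHCB2.3 had the deepest fall of all, with log2 fold changes of -6.35 ± 0.743 (SE) and -6.64 ± 0.749. LHCA6, whose protein links photosystem I to the NDH complex, went from 267.0 to 3.75 CPM in Col-0 (log2 fold change -6.16) and from 259.7 to 8.72 CPM in the mutant (-4.82).

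Several genes changed less with age. LHCB7, a rare member of the LHCB family, was at 18.9 ± 3.51 CPM in Col-0 at 25 DAS and at 16.7 ± 4.70 CPM at 45 DAS (SD, n = 5). It was the only one of the 53 that passed no age test, with log2 fold changes of -0.20 in Col-0 (edgeR adjusted p = 0.465) and 0.43 in the mutant (adjusted p = 0.0772), and with library totals alone its Col-0 value turned to 0.47 (adjusted p = 0.0732). LHCB4.3, a variant of the linker protein CP29, fell by 1.55 and 1.51 on the log2 scale. LHCA5, a minor photosystem I antenna protein that also joins the NDH supercomplex, fell by 2.19 and 1.91. PSBR, a small subunit that stabilises the water-splitting side of photosystem II, fell by 2.12 and 1.13, and FNR2, a leaf ferredoxin-NADP reductase, by 1.84 and 1.07.

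**Figure D2:**
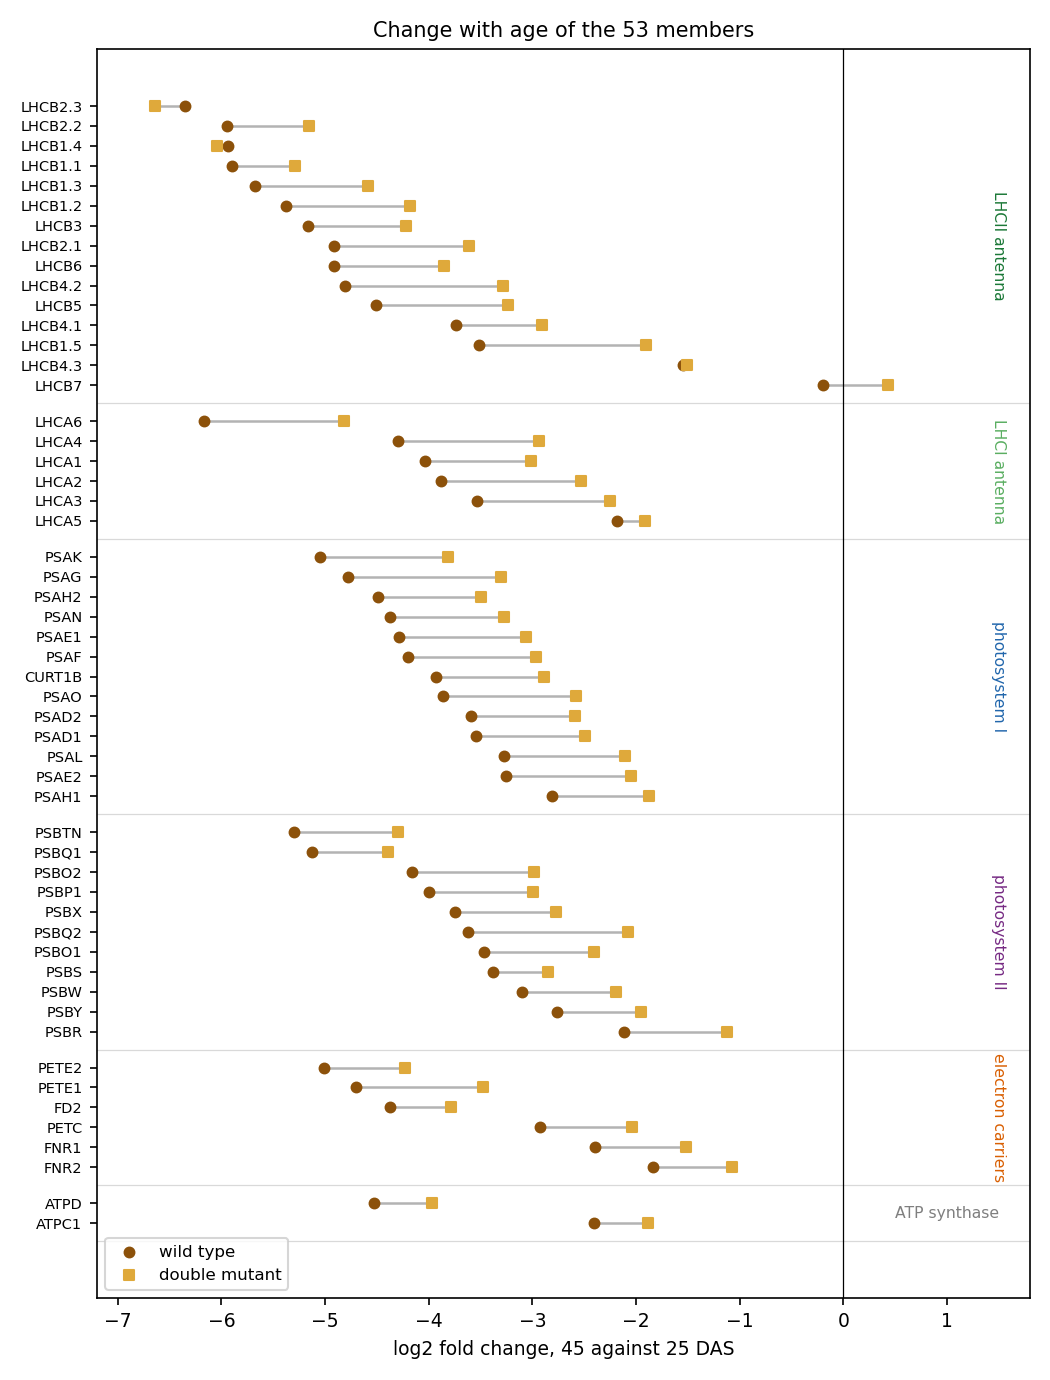
Log2 fold change from 25 to 45 DAS of each of the 53 genes in Col-0 (circles) and in the double mutant (squares), sorted by the Col-0 value within each role. Values run from -6.64 for LHCB2.3 in the mutant to 0.43 for LHCB7 in the mutant, and 51 of 53 squares lie to the right of their circle.

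At 25 DAS no member differed between the genotypes in the fit of all 20 libraries: 0 of 53 were called, where 3.16% of all genes were, and 0 had an unadjusted p under 0.05. The median log2 fold change was -0.03, and values ran from -0.19 for LHCB1.4 to 0.17 for PSBS, the photosystem II protein that triggers thermal dissipation of excess light. The lowest unadjusted p was 0.416, for PSAE2 (edgeR adjusted p = 0.761). The 95% confidence intervals of single genes reached from -1.32 for LHCB1.4 to 1.21 for LHCB2.3 on the log2 scale, in a fit that shares 1 estimate of the spread with the more variable 45 DAS libraries. The libraries of 3 genes did not overlap (PSAE2, PSBQ2 and PSBS), where 7.72% of all genes did not. PSBS stood at 2341, 2446, 2228, 2405 and 2200 CPM in Col-0 and at 2720, 2851, 2464, 2511 and 2508 CPM in the mutant. Every mutant library was therefore above every Col-0 library for PSBS, and the log2 fold change was 0.17 ± 0.210 (SE, edgeR adjusted p = 0.771).

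Fitted on the 10 libraries of 25 DAS alone, 7 members were called, all lower in the mutant, where 4.87% of all genes were called lower. They were LHCB1.4 (log2 fold change -0.23, adjusted p = 0.00193), LHCB1.5 (-0.12), LHCA3 (-0.13), PSAE2 (-0.17), PSAO (-0.15), PSBQ2 (-0.16) and PSBW (-0.15). DESeq2's Wald test and voom on all 20 libraries called 0 members at this age, and 611 and 986 of all 14503 genes.

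At 45 DAS the genotypes differed across most of the set, and every call was in 1 direction. The mutant had 51 of 53 genes at higher levels, with a median log2 fold change of 0.99 (1.98-fold), beside a median of 0.00 over all genes tested. In edgeR's quasi-likelihood test 38 members were called, all higher in the mutant, where 5.05% of all genes were called higher. That fit shares 1 estimate of the spread per gene with the libraries of the younger age, which varied less. The standard errors and p-values it gives for genotype at 45 DAS may therefore be too small. In 17 genes every mutant library lay above every Col-0 library, as in 2.98% of all genes. The calls covered 13 of 13 photosystem I genes, 9 of 11 photosystem II genes, 4 of 6 LHCI genes, 4 of 6 electron carriers, 1 of 2 ATP synthase genes and 7 of 15 LHCII genes. The median log2 fold changes were 1.25 for LHCI, 1.09 for photosystem I, 0.97 for LHCII, 0.95 for photosystem II, 0.82 for the carriers and 0.66 for ATP synthase.

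The number of calls moved with the libraries in the fit. It was 28 without Col-0 replicate 2, Col-0 replicate 3 or mutant replicate 2 of 45 DAS, and 51 without Col-0 replicate 1. Over all genes, 528 of 14696, 546 of 14710 and 483 of 14743 were called higher in the fits with 28. In the fit with 51, 1500 of 14730 were. Fitted on the 10 libraries of 45 DAS alone, where the filter kept 11520 genes, 9 members were called, all higher in the mutant, where 1.52% of all genes were called higher. Those 9 were LHCB1.5, LHCA2, LHCA3, PSAD2, PSAE1, PSAE2, PSAO, PSBQ2 and PSBR, and they were called in every alternative fit tried. Of the 38, 27 were called in every fit other than that one.

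Col-0 replicate 1 stood apart from the other Col-0 libraries of 45 DAS. It had the highest Col-0 level of every one of the 53 genes, and replicate 5 had the lowest of 47. Summed over the genes, Col-0 levels were 32730, 13270, 13300, 18150 and 8516 CPM in replicates 1 to 5. The mutant sums were 35590, 40660, 32680, 35240 and 33950 CPM, so Col-0 replicate 1 lay just above mutant replicate 3 and the groups overlapped by that library. Over the genes the median coefficient of variation was 57.2% in Col-0 at 45 DAS, 32.1% without replicate 1, and 11.3% in the mutant. At 25 DAS it was 4.14% in Col-0 and 5.47% in the mutant.

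The senescence marker SAG12, a cysteine protease gene, did not follow the same order of libraries. It stood at 3008, 2611, 863.1, 805.7 and 16420 CPM in the Col-0 replicates, with the top value in the library with the lowest sum of the 53 genes. In the mutant it was at 41.7, 78.2, 268.3, 138.9 and 78.0 CPM, below every Col-0 library. The part of senescence stage in the genotype difference was not tested. Without Col-0 replicate 1, an alternative whose medians by role were added after the sums had been seen, 51 members were called higher, where 10.2% of all genes were, and the median log2 fold change was 1.50. In that setting 48 of 53 genes had no overlap between the groups, as did 7.07% of all genes. The LHCII median of 1.74 was the highest of the roles, followed by LHCI at 1.65, photosystem I at 1.52, photosystem II at 1.33, the carriers at 1.11 and ATP synthase at 1.1. Col-0 replicate 1 was the highest Col-0 library for all 53 genes, so leaving it out lowers their Col-0 means and can only reduce overlap. Over all genes no such choice was made, so the 10.2% and 7.07% are not like measures.

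**Figure D3:**
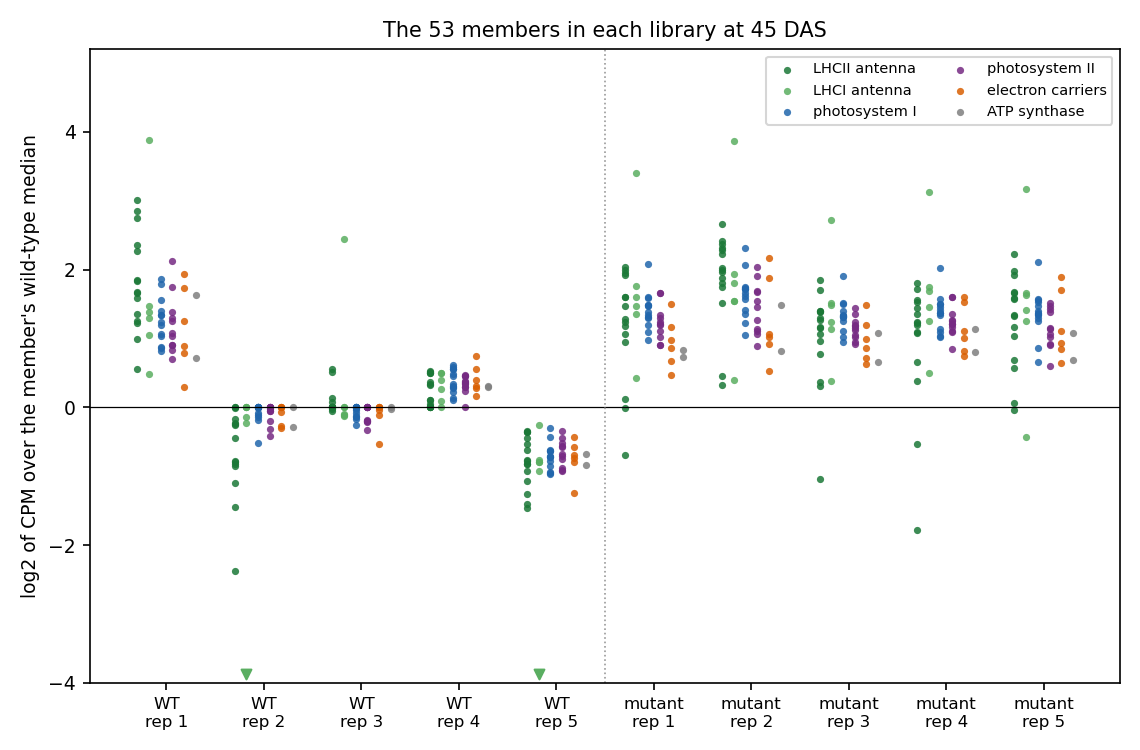
Level of each of the 53 genes in each 45 DAS library, as the log2 ratio to the Col-0 median of that gene, coloured by role; triangles mark LHCA6 at 0 CPM in 2 Col-0 libraries. Col-0 replicate 1 lies above the other Col-0 libraries for all 53 genes and overlaps the mutant libraries, and replicate 5 lies below 0 throughout.

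Within the LHCII antenna, LHCB1.5 was at 1746, 748.6, 735.5, 1064 and 358.0 CPM in Col-0 at 45 DAS and at 2974, 3037, 2430, 2614 and 2378 CPM in the mutant. The groups did not overlap, and the log2 fold change was 1.53 ± 0.257 (SE, edgeR adjusted p = 0.000624). LHCB1.3 (AT1G29930), the LHCII gene with the most counts at 25 DAS, was at 822.4, 97.8, 186.6, 170.3 and 133.3 CPM in Col-0 and at 517.4, 850.2, 448.6, 463.7 and 799.7 CPM in the mutant. Here Col-0 replicate 1 lay among the mutant libraries, and the log2 fold change of 1.12 ± 0.405 did not pass the threshold (edgeR adjusted p = 0.0851).

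LHCB1.4 was at 283.6, 20.5, 51.8, 35.3 and 24.3 CPM in Col-0 and at 35.1, 171.3, 45.7, 24.3 and 56.8 CPM in the mutant. A single library in each group held most of the signal, the groups overlapped throughout, and the log2 fold change was -0.30 (edgeR adjusted p = 0.85). Its value turned to 1.16 without Col-0 replicate 1, and that of LHCB2.3 turned from -0.20 to 1.07. The other LHCII calls were LHCB2.1, LHCB3, LHCB4.1, LHCB4.2, LHCB5 and LHCB6, with log2 fold changes from 0.83 for LHCB4.1 to 1.44 for LHCB4.2.

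In the LHCI antenna, LHCA4 (AT3G47470) was at 1562, 512.7, 563.3, 793.3 and 324.8 CPM in Col-0 and at 1906, 2165, 1612, 1809 and 1738 CPM in the mutant. No libraries overlapped, and the log2 fold change was 1.297 ± 0.268 (edgeR adjusted p = 0.00281). LHCA2 (AT3G61470) was at 845.2, 342.3, 315.4, 485.4 and 201.8 CPM in Col-0 and at 1035, 1201, 962.0, 1145 and 1083 CPM in the mutant. Its log2 fold change was 1.31 ± 0.240 (adjusted p = 0.00119), and LHCA1 and LHCA3 were also called. LHCA6 rested on 21 counts in all Col-0 libraries and 73 in the mutant, and its log2 fold change of 1.303 ± 0.564 did not pass (adjusted p = 0.166). LHCA5, at 0.27, was the smallest LHCI difference and did not pass either (adjusted p = 0.301).

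In photosystem I the log2 fold changes lay between 0.84 for PSAH1 and 1.45 for PSAG, and edgeR called every one, although 4 of the 13 stayed called in the fit of 45 DAS libraries alone. PSAG (AT1G55670), which helps to attach the LHCI belt, was at 676.5, 168.8, 186.6, 285.9 and 138.5 CPM in Col-0 and at 786.6, 931.0, 700.3, 760.6 and 803.7 CPM in the mutant. Col-0 replicate 1 came close to the lowest mutant library without reaching it, and the edgeR adjusted p was 0.00199. PSAE2 (AT2G20260), a stromal subunit at the ferredoxin docking site, was at 111.7, 60.7, 59.0, 70.6 and 35.4 CPM in Col-0 and at 138.7, 155.5, 130.4, 129.4 and 156.0 CPM in the mutant. Its log2 fold change was 1.07 ± 0.179 (edgeR adjusted p = 0.000574). CURT1B, listed with photosystem I as PSI-P and known for bending thylakoid membranes, had a log2 fold change of 0.98 (adjusted p = 0.00302).

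In photosystem II, PSBQ2 (AT4G05180), an extrinsic subunit of the oxygen-evolving complex, had the smallest adjusted p of the whole set. PSBQ2 was at 395.3, 211.4, 185.4, 249.7 and 131.8 CPM in Col-0 and at 668.7, 674.2, 576.5, 644.2 and 571.0 CPM in the mutant, with no overlap. Its log2 fold change was 1.42 ± 0.192 (edgeR adjusted p = 6.84e-05). PSBR (AT1G79040), which had the most counts of the 53 genes at 45 DAS, was at 3217, 1972, 1724, 2556 and 1340 CPM in Col-0 and at 4245, 4250, 4312, 4579 and 3996 CPM in the mutant. Again no libraries overlapped, with a log2 fold change of 0.98 ± 0.190 (edgeR adjusted p = 0.00163). PSBQ1 at 0.77 and PSBTN at 0.91 did not pass (adjusted p = 0.239 and 0.0504), and the smallest difference that did was PSBS at 0.69 (adjusted p = 0.04).

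Among the carriers, PETE2 (AT1G20340), the main plastocyanin, was at 816.7, 173.5, 214.3, 358.3 and 158.4 CPM in Col-0 and at 482.4, 786.2, 489.3, 616.3 and 697.9 CPM in the mutant. Col-0 replicate 1 was above all 5 mutant libraries, and the log2 fold change of 0.83 ± 0.311 was not called (edgeR adjusted p = 0.0926). FNR1 (AT5G66190) was at 365.1, 197.2, 192.6, 258.6 and 131.8 CPM in Col-0 and at 390.3, 402.0, 392.9, 426.3 and 424.3 CPM in the mutant. Its groups did not overlap, and the log2 fold change was 0.83 ± 0.175 (edgeR adjusted p = 0.00317). FNR2 (AT1G20020) was at 162.2, 132.5, 91.5, 161.5 and 79.5 CPM in Col-0 and at 183.1, 191.0, 205.2, 221.5 and 206.2 CPM in the mutant, a log2 fold change of 0.68 ± 0.152 (adjusted p = 0.00499). PETC, the Rieske iron-sulfur protein, and PETE1 were called as well, at 0.80 and 1.23, whereas FD2, the main leaf ferredoxin, was at 0.57 (adjusted p = 0.132).

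Of the ATP synthase genes, ATPC1 (AT4G04640), the gamma subunit, was at 732.7, 445.7, 436.9, 551.5 and 277.7 CPM in Col-0 and at 740.0, 783.6, 701.1, 776.6 and 720.4 CPM in the mutant. Col-0 replicate 1 lay within the mutant range, and the log2 fold change was 0.61 ± 0.174 (edgeR adjusted p = 0.0259). ATPD, the delta subunit, had a log2 fold change of 0.71 that did not pass (adjusted p = 0.128).

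The difference between the genotypes was larger at 45 than at 25 DAS for 18 members by edgeR's test of the genotype-by-age interaction, all positive, where 1.83% of all genes were called in that direction. The log2 differences between the age changes ran from 0.76 for FNR2 to 1.61 for LHCB1.5, with adjusted p-values from 0.0022 for PSBQ2 to 0.0492 for PSAL. They comprised 7 photosystem I, 4 photosystem II, 3 LHCI, 2 LHCII and 2 carrier genes and 0 of the ATP synthase genes. Many lay near the threshold: the count was 4 without mutant replicate 2 of 45 DAS, where 1.18% of all genes were called positive, and 48 without Col-0 replicate 1, where 6.33% were. Leaving out any of 17 libraries singly, those of 25 DAS among them, gave counts from 4 to 9, where 163 to 242 of all genes were called positive. Leaving out Col-0 replicate 4 or 5 of 45 DAS gave 12 and 18, where 341 of 14740 and 257 of 14728 genes were. LHCB1.5, PSAE1, PSAE2 and PSBQ2 were called in every alternative fit.

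The make-up of the set changed with age as well. Each gene's counts were taken as a share of the counts of all 53, which needs no scaling between libraries but makes the shares depend on each other. The LHCII antenna went from 33.1% ± 0.317 to 17.9% ± 3.06 (SD, n = 5) in Col-0 and from 33.2% ± 0.564 to 20.6% ± 1.69 in the mutant. Photosystem II went from 17.8% ± 0.155 to 32.0% ± 3.13 in Col-0 and from 17.8% ± 0.342 to 28.9% ± 1.60 in the mutant, and no 25 DAS library overlapped a 45 DAS library for either role. Much of the second shift lay in PSBR, which went from 3.49% to 13.5% in Col-0 and from 3.54% to 12.1% in the mutant and moved from rank 7 to rank 1. Without PSBR, photosystem II went from 14.3% to 18.5% and from 14.3% to 16.8%.

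At 45 DAS the shares also separated the genotypes. The LHCI share was 14.7% to 16.3% in Col-0 libraries and 16.7% to 17.7% in mutant libraries, and that of photosystem I was 22.5% to 23.2% and 23.7% to 24.3%. The carriers held 7.72% to 8.39% in Col-0 and 5.86% to 7.17% in the mutant, and ATP synthase held 3.06% to 3.94% and 2.51% to 2.74%. None of these 4 pairs of ranges overlapped, also with Col-0 replicate 1 included, whereas the ranges of the LHCII antenna and of photosystem II did. Summed by role, photosystem I and its antenna thus took a larger part of the remaining transcripts in the mutant, and carriers and ATP synthase a smaller part. Single genes did not all go with their role. LHCA1, LHCA5 and PSAH1, among others, had smaller mean shares in the mutant, and PETE1 a larger one. At 25 DAS the ATP synthase shares did not overlap either, but in the other direction, with 1.91% to 2.00% in Col-0 and 2.02% to 2.31% in the mutant.

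Within the LHCB1 family the balance moved to 1 gene. LHCB1.5 held 23.0% ± 0.429 of the family counts of Col-0 at 25 DAS and 63.4% ± 11.9 at 45 DAS, and 22.4% ± 0.894 and 68.5% ± 6.80 of those of the mutant (SD, n = 5). LHCB1.3, the first at 25 DAS with 31.2% and 33.0%, went to 16.3% and 15.4%. LHCB1.4, the divergent neighbour of LHCB1.5, went from 11.1% to 4.09% in Col-0 and from 10.03% to 1.56% in the mutant. In the last 200 transcribed bases, where 3' counts gather, no run of 50 bases of any of the 53 genes is shared with another locus, while 18.6% of such runs in the last 500 bases are for LHCB1.3 and 28.4% for LHCB2.2, so some uncertainty between copies remains.

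**Figure D4:**
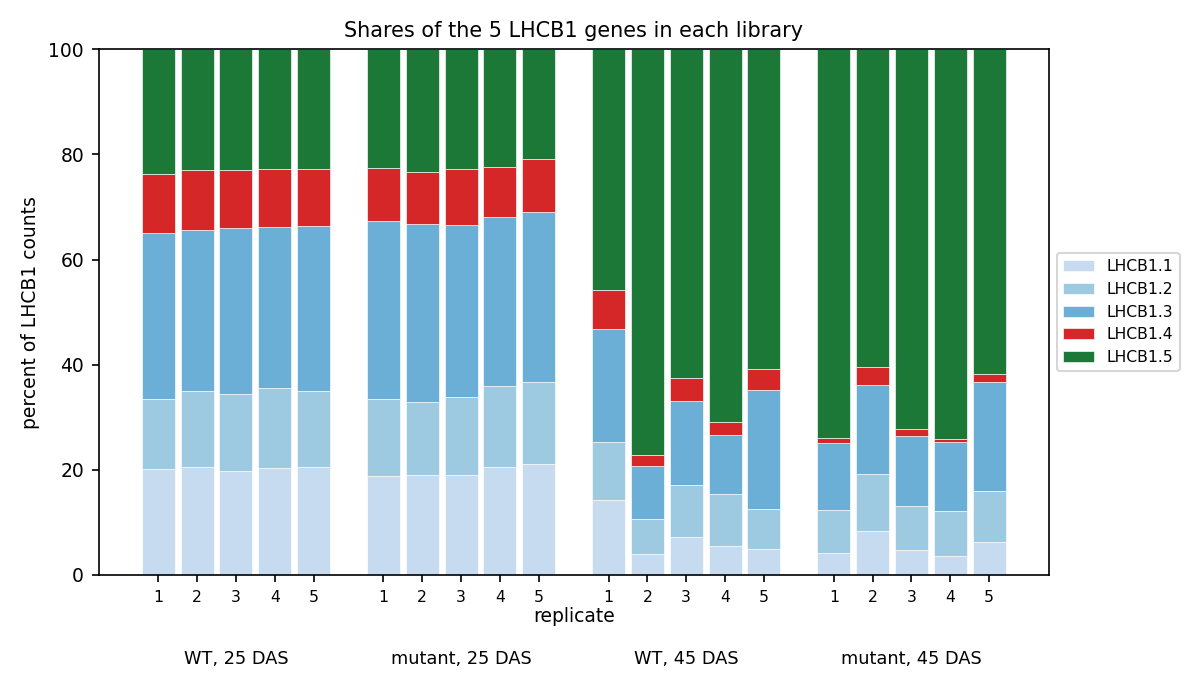
Percent of the counts of the 5 LHCB1 genes held by each gene, 1 bar per library. LHCB1.5 holds 21.0% to 23.8% at 25 DAS and 45.8% to 77.1% at 45 DAS, and LHCB1.4 at most 7.43% at 45 DAS.

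The same was measured in 9 pairs of close copies, as the share of the first gene in the counts of its pair, by a two-sided exact permutation test over 5 against 5 libraries, whose smallest possible p is 0.00794. Of 36 tests, 20 passed after Benjamini-Hochberg adjustment, 7 for age in Col-0, 8 for age in the mutant, 3 for genotype at 25 DAS and 2 for genotype at 45 DAS. PSAH1, against its copy PSAH2, went from 28.5% to 57.4% in Col-0 and from 27.0% to 53.2% in the mutant (exact permutation, adjusted p = 0.0168 for both). PSBQ1, against PSBQ2, went the other way, from 45.6% to 19.6% and from 48.2% to 15.6% (exact permutation, adjusted p = 0.0168). LHCB2.1, against LHCB2.2, went from 56.8% to 77.3% and from 55.9% to 79.2% (exact permutation, adjusted p = 0.0168).

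Smaller shifts of the same test were those of PSBO1 from 81.2% to 87.6% in Col-0, of PSAE1 from 86.4% to 75.5% and of FNR1 from 72.8% to 64.2%. PSAD1 did not shift past the threshold, at 65.6% and 65.1% in Col-0 (exact permutation, adjusted p = 0.645). Between genotypes at 45 DAS, LHCB4.1 held 81.0% of the counts of the 2 major CP29 genes in Col-0 and 71.2% in the mutant (exact permutation, adjusted p = 0.0318). PETE1 held 6.16% of plastocyanin counts in Col-0 and 7.95% in the mutant at that age (exact permutation, adjusted p = 0.0429), and this call was lost in 9 of 21 alternatives, with adjusted p up to 0.0857.

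Genes that build and regulate the same complexes had smaller median changes with age, from -1.60 to -2.77 on the log2 scale for the 4 nuclear lists given here in Col-0. Of 10 tested genes for antenna insertion and antenna-like proteins, 9 fell and 1 rose with age in Col-0. Of 11 assembly and repair factors all 11 fell. Among all genes 34.5% were called lower with age in Col-0 and 70.6% in either direction (34.6% and 70.0% in the mutant). The one that rose was ELIP1, an early light-induced stress protein, from 33 counts at 25 DAS to 564 at 45 DAS in Col-0, and it was called higher with age in both genotypes. At 45 DAS 3 of the insertion genes were higher in the mutant and 1 lower, where 9.93% of all genes were called. LTD, which hands antenna proteins to the plastid signal recognition particle, had a log2 fold change of 0.95 (edgeR adjusted p = 0.00498). CPSRP43, a chaperone of that particle, was at 0.62 (edgeR adjusted p = 0.0134) and ELIP1 at -0.73 (adjusted p = 0.0128). At 25 DAS the ELIP1 value had the other sign, at 1.28, and its interaction value was -2.005 (edgeR adjusted p = 0.00425). Of the assembly factors 3 were higher and 0 lower, among them PSB29 at 0.56 and Y3IP1 at 0.68.

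Of 11 genes for thylakoid regulation and shape, 4 were higher in the mutant at 45 DAS, where 5.05% of all genes were called higher, and of 10 further nuclear subunits of the chain 6 were higher and 1 lower, where 9.93% were called in either direction. CURT1C, a membrane-curvature protein, had a log2 fold change of 0.90 (edgeR adjusted p = 0.00127), and NDHN, a subunit of the NDH complex, 1.29 (adjusted p = 0.000326). FD3, a ferredoxin of non-green tissue, was lower in the mutant, at -1.06 (adjusted p = 0.000348), after a rise with age in Col-0 of 2.23 on the log2 scale. PSBP2 rested on 2 counts in Col-0 and 25 in the mutant at 45 DAS. Of 11 plastid-encoded core genes, 8 fell with age in Col-0 and 7 in the mutant, where 34.5% and 34.6% of all genes were called lower. In the mutant 2 (PETB and PETD) were higher at 45 DAS, where 5.05% were called higher. The libraries had been primed with oligo(dT), and how far their counts follow the levels of plastid transcripts was not tested.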

How the data were processed

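Per the labels' protocols, 500 ng of RNA was reverse transcribed with barcoded oligo(dT) primers, pooled and tagmented with Tn5. Per the submitters' processing notes the reads were aligned with STAR 2.7.8a to TAIR10; the annotation, the use of strand and the collapsing of molecular barcodes are not given in the sources used here. The authors deposited whole-number counts per locus for each of the 20 libraries, and no normalization had been applied to them. Of the 53 genes, 18 overlap another locus on the annotation, so counts of overlapping or antisense genes cannot be told apart where strand was not used. Levels (CPM) are counts scaled to a common TMM-corrected library size. Since 3' ends were counted, only changes and shares are compared between genes.

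Genes were filtered with filterByExpr by group and tested with edgeR 4.0.16 (glmQLFit, robust, glmQLFTest) in 1 model of 4 group means, with Benjamini-Hochberg adjustment over 14503 genes and a threshold of 0.05. Alternatives used DESeq2 1.42.0, limma 3.58.1 (voom with a variance per group), other scalings, filters and thinned counts, the compared groups alone, a block for replicate number, and fits lacking 1 library each. For 7 members DESeq2 gave no adjusted p, and these were kept as missing. Scripts ran in R 4.3.3 and Python 3.11.15 (NumPy 2.4.6, pandas 2.3.3, SciPy 1.17.1, matplotlib 3.10.9), and the test was checked on simulated data. RefSeq TAIR10.1 served for names (99.2% of loci matched), overlaps and promoters.

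The members and lists were chosen with earlier results of these data known. Values by library are given for the most abundant gene of each role and the genes with the smallest p for genotype at 45 DAS and for the interaction. Other members named singly (LHCB1.1, LHCB1.4, LHCB2.3, LHCB4.3, LHCB7, LHCA6, PSBQ1, PSBS and FD2 among them), and GLK1, GLK2, GNC, HY5, FD3 and PSBP2, were picked after their values had been seen. From the other lists, the text names some of the up to 4 genes with the smallest p for genotype at 45 DAS or age in Col-0. Counting error limits genes with few counts, such as LHCA6 and LHCB7; PCR duplicates may make it larger. Replicates of every group differed by more than sampling noise (lowest chi-square per degree of freedom 1.41).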

Additional observations from a re-analysis of the deposited data

Results flagged for a closer look

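In groups of 5 libraries, 11 of 112 tested sets of values had 1 library whose gap to its neighbour exceeded Dixon's 95% critical value of 0.71 of the range; chance flags about 1 in 20 groups. Col-0 replicate 1 of 45 DAS accounted for 7 of them: it stood above the other 4 libraries for LHCB1.1 (546.1 CPM), LHCB1.3 (822.4 CPM), LHCB1.4 (283.6 CPM), LHCB2.3 (105.1 CPM), PSAG (676.5 CPM), PSBQ1 (189.9 CPM) and the summed LHCII antenna (7483 CPM). Mutant replicate 2 of 45 DAS stood above its group for LHCB1.4 (171.3 CPM) and PSBQ1 (177.3 CPM). At 25 DAS Col-0 replicate 3 was low for LHCB1.1 (8940 CPM) and Col-0 replicate 1 high for LHCB1.3 (14820 CPM).

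The age change differed between the genotypes, by edgeR's interaction test, for 18 genes, each of which fell less in the mutant. The log2 difference, mutant minus wild type, was 1.61 for LHCB1.5 and 1.27 for LHCB5 in the LHCII antenna. In the LHCI antenna it was 1.35 for LHCA2, 1.29 for LHCA3 and 1.36 for LHCA4. In photosystem I it was 1.01 for PSAD2, 1.23 for PSAE1, 1.21 for PSAE2, 1.48 for PSAG, 1.17 for PSAL, 1.29 for PSAO and 1.04 for CURT1B. In photosystem II it was 1.06 for PSBO1, 1.17 for PSBO2, 1.53 for PSBQ2 and 0.99 for PSBR, and among the carriers 0.87 for FNR1 and 0.76 for FNR2. Col-0 replicate 1, which stood apart, takes part in each of these values.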

How the results depend on the processing

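The count of members lower with age stayed at 52 in each genotype when any library was left out. Without mutant replicate 3 of 25 DAS or mutant replicate 5 of 45 DAS, 1 further member was called higher with age in the mutant. Under DESeq2, where 7 members had no adjusted p, 45 were lower in each genotype. Of all 14503 genes, 4906 in Col-0 and 4956 in the mutant were called lower there. At 45 DAS the count of 38 ranged from 28 to 51 with a library left out. It was 51 without Col-0 replicate 1, where 1500 of 14730 genes were called higher. It was 28 without Col-0 replicate 2, Col-0 replicate 3 or mutant replicate 2. In those fits 528 of 14696, 546 of 14710 and 483 of 14743 genes were called higher, in that order. With a fold change of at least 2 required the count was 21, and no such count over all genes is given here. In the fit of the compared groups alone it was 9, where 175 of 11520 genes were called higher. With voom it was 46, where 556 of 14503 genes were called higher. At 25 DAS the count was 0 with any library left out, where 213 to 683 of all genes were called in either direction. It was 7 in the fit of the compared groups alone, where 596 of 12250 genes were called lower. The interaction count of 18 ranged from 4 to 48 with a library left out, where 163 to 932 of all genes were called positive. It fell to between 4 and 9 for 17 of the 20 libraries. It was 8 with DESeq2 size factors, 10 with upper-quartile scaling and 37 with voom, where 232, 300 and 337 of 14503 genes were positive. With thinned counts it was 8, where 113 of 11152 genes were positive. The causes of these shifts were not tested. Of the paralog tests, 19 to 21 passed with a library left out and 18 with thinned counts.

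The deviations of same-numbered replicates had correlations from -0.226 to 0.345 (median 0.02, 6 of 30 above 0.1). Those of replicates with different numbers ran from -0.292 to 0.346 (median -0.008, 15 of 120 above 0.1). These values do not settle whether the numbers pair the samples. With a replicate block 41 members were called higher at 45 DAS, 0 were called at 25 DAS and 23 were positive in the interaction. Of all 14503 genes, 737 were called higher at 45 DAS, 598 in either direction at 25 DAS and 279 positive in the interaction.

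Values that changed sign at 45 DAS were those of LHCB1.4 (0.17 with voom, 1.16 without Col-0 replicate 1), LHCB2.3 (0.0072 with voom, 1.07 without Col-0 replicate 1, 0.0031 and 0.07 without mutant replicates 3 and 4) and LHCB4.3 (-0.06596 with thinned counts, -0.05503 without Col-0 replicate 5), none of them called. LHCB7 with age in Col-0 turned to 0.47 with library totals alone, an alternative chosen after seeing the data. LHCB1.4 and LHCB2.3 reached -1.11 and -1.32 without mutant replicate 2, and LHCB4.3 became called at 0.48 without Col-0 replicate 1 (adjusted p = 0.0322). The fewest counts at 45 DAS in Col-0 were those of LHCA6 (21), LHCB7 (97), PETE1 (131) and LHCB2.3 (194), where counting error is largest relative to the level.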

Other observations

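Regulators of photosynthesis genes were measured beside the genes they are known to control. Of 14 tested, 9 fell and 2 rose with age in each genotype. Among all genes 34.5% in Col-0 and 34.6% in the mutant were called lower with age, and 70.6% and 70.0% in either direction. At 45 DAS 6 regulators were higher and 1 was lower in the mutant, where 9.93% of all genes were called. GLK1, a GOLDEN2-LIKE transcription factor that activates antenna genes, was at 40.5, 40.8, 40.5, 43.8 and 43.2 CPM in Col-0 and at 77.9, 86.9, 92.5, 63.1 and 57.5 CPM in the mutant at 25 DAS. The groups did not overlap, with a log2 fold change of 0.85 (edgeR adjusted p = 0.00922). At 45 DAS the log2 fold change of GLK1 was 0.91 (adjusted p = 0.00152), that of GLK2 1.05 (adjusted p = 0.00608) and that of GNC, a GATA factor that promotes greening, 0.94 (adjusted p = 0.0254).

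HY5, a light-signalling bZIP factor, went the other way. HY5 was at 14.7, 9.46, 14.4, 12.3 and 25.0 CPM in Col-0 and at 3.29, 5.13, 4.98, 5.34 and 3.96 CPM in the mutant at 45 DAS, with no overlap, on 90 and 36 counts in all. Its log2 fold change was -1.72 at that age (edgeR adjusted p = 0.000716) and its interaction value -1.97 (adjusted p = 0.0134). The plastid sigma factors SIG1 and SIG6, which direct transcription in the chloroplast, were both higher in the mutant at 45 DAS, by log2 fold changes of 0.76 and 0.76. Whether any of these regulators bears on the 53 genes was not tested.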
